A study of Homo sapiens with 15 samples.

Results

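The 35 genes described here are human genes of homologous recombination and of the Fanconi anemia pathway, chosen by symbol from a fixed list, and all 35 were found among the 33158 gene symbols of the deposited expression table. RNA was sequenced from 3 triple negative breast cancer cell lines in 5 groups of 3 libraries each. SUM149PT and HCC1937 cells were sorted on the surface proteins CD44 and CD24 into a CD44+CD24-/low fraction, called cancer stem cells (CSC), and the remaining cells, called non-CSC. SUM159PT was sequenced unsorted and was treated as CSC by the study. SUM149PT and HCC1937 are known to carry BRCA1 mutations, and the values below count BRCA1 transcript whatever its sequence. No group received a drug or a genetic change according to the labels, and nothing states that the 3 replicates of a group came from separate cultures.

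Homologous recombination repairs a DNA break by copying the intact sister chromatid, so it works mainly in S and G2 phase. MRE11A, RAD50 and NBN sense the break, resection by RBBP8 and EXO1 exposes a strand, and BRCA1, PALB2 and BRCA2 prepare that strand to pair with the sister. The Fanconi core complex attaches ubiquitin to FANCD2 and FANCI at crosslinked DNA and hands the lesion to the same recombination machinery, and inherited faults in several of these genes raise the risk of breast cancer.

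Levels are FPKM, fragments scaled to transcript length and to the library's mapped fragments, a level per length that can be set side by side between genes. A value after ± is the SD of 3 libraries. Differences are log2 differences of FPKM plus 0.1, fitted with limma to every gene that averaged 0.1 FPKM or more, and a gene is called higher or lower at an adjusted p of at most 0.05. The added 0.1 makes the log2 difference of a gene with little transcript smaller than the ratio of its levels. The number of reads behind a value is unknown, because the values do not move in steps of whole reads: each library held 77 to 102 values between 0 and 0.001 FPKM. In these bulk samples fewer cells with a transcript and less transcript per cell cannot be told apart.

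Promoter sequence is shown for 8 members, each called higher or lower in HCC1937 than in SUM149PT in the CSC fractions. BRCA1 and BRCA2 are the genes the pathway is best known for. EXO1, XRCC2, FANCD2 and FANCA had some of the largest differences between HCC1937 and SUM149PT, and FANCE and FANCF differed the other way. RAD51AP1 and RAD54L also had large differences, are not shown and hold none of the E2F type motifs given below. Each run is RefSeq sequence of build GRCh38.p14, 5′ to 3′ on the gene's own strand, from 220 bases before to 30 bases after an annotated start. For EXO1 the start whose window held the most E2F type motifs was taken, and for the other genes the first by coordinate. The motif shown for EXO1 therefore follows from that choice. Capitals mark a CCAAT box (CCAAT) or an E2F type motif (TTTCCCGC, TTTCGCGC, TTTGCCGC or TTTGGCGC), on either strand.
BRCA1 (chr17:43125335-43125584, minus strand): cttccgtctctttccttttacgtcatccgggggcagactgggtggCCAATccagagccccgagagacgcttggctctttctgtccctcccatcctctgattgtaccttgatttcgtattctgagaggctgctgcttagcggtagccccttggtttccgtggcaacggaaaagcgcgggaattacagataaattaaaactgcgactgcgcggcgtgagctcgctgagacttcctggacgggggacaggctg
BRCA2 (chr13:32315288-32315537, plus strand): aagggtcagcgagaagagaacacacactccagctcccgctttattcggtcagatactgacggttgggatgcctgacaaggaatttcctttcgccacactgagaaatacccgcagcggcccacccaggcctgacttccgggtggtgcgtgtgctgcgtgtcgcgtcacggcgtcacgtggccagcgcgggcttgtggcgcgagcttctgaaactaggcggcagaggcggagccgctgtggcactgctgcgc
EXO1 (chr1:241847984-241848233, plus strand): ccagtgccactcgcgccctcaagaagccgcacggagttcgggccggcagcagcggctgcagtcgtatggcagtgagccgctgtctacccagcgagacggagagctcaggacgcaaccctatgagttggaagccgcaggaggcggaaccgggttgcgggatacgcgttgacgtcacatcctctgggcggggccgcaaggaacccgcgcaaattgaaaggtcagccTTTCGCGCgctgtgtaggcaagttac
XRCC2 (chr7:152676112-152676361, minus strand): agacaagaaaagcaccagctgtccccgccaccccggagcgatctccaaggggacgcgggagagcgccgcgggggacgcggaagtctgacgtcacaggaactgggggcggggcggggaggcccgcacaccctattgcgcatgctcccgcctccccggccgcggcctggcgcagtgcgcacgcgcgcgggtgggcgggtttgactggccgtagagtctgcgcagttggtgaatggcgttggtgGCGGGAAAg
FANCD2 (chr3:10026217-10026466, plus strand): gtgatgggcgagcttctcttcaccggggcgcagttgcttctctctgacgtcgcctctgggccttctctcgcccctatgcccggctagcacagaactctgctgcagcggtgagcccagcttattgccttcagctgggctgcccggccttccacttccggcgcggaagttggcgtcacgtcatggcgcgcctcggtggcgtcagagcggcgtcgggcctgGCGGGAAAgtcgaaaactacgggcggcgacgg
FANCA (chr16:89816618-89816867, minus strand): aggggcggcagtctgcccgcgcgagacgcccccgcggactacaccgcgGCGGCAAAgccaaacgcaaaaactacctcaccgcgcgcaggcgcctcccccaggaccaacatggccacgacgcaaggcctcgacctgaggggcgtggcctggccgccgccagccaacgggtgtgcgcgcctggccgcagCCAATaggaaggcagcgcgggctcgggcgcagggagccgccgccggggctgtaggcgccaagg
FANCE (chr6:35452118-35452367, plus strand): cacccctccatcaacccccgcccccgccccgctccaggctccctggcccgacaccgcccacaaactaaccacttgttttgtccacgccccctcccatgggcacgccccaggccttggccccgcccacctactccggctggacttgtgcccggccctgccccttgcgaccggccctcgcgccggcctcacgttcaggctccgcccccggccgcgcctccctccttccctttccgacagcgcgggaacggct
FANCF (chr11:22625794-22626043, minus strand): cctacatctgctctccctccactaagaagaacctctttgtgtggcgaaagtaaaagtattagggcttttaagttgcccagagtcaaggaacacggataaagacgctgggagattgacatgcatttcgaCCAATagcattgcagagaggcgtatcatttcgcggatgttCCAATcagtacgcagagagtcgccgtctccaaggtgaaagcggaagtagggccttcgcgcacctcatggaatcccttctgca

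Promoter windows of 300 bases were available for 32 of the 35 members, all but RAD54B, NBN and FANCI, in 45 windows, and were searched on both strands. The E2F type motif was present in 5 of the 32 members, EXO1, FANCA, FANCC, FANCD2 and XRCC2, and in 5.12% of 17068 genes searched the same way. The CCAAT box was present in 15 of the 32 members and 41.9% of genes, and the GC box GGGCGG in 25 of the 32 members and 61.7% of genes. The CHR element TTTGAA was present in 3 of the 32 members, ATM, BRIP1 and FANCC, and in 16.2% of genes. A match is a description of the letters and not evidence of a bound factor.

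PARP1, which marks DNA breaks with chains of ADP-ribose, had the highest level of the 35 members in the sorted groups. Its FPKM was 23.6 ± 0.390 in SUM149PT CSC, 22.4 ± 0.762 in SUM149PT non-CSC, 94.6 ± 4.21 in HCC1937 CSC and 76.6 ± 3.15 in HCC1937 non-CSC. The lowest member was XRCC2 in both SUM149PT groups, with 0.339 ± 0.0139 and 0.318 ± 0.0475 FPKM. In HCC1937 the lowest was BRCA2, with 1.41 ± 0.230 in CSC and 1.09 ± 0.197 in non-CSC. In SUM159PT the range ran from FANCM, the translocase that anchors the core complex, at 0.0311 ± 0.0208 to FANCG at 40.4 ± 1.39.

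Most members were more abundant in HCC1937. The median member level was 2.49 FPKM in SUM149PT CSC, 2.98 in SUM149PT non-CSC, 5.76 in HCC1937 CSC, 5.92 in HCC1937 non-CSC and 0.549 in SUM159PT. All 35 members averaged at least 1 FPKM in both HCC1937 groups, against 25 and 28 in SUM149PT CSC and non-CSC and 13 in SUM159PT. By group mean, 22 members were highest in HCC1937 CSC and 6 in HCC1937 non-CSC, while 24 were lowest in SUM159PT. The libraries of a group lay close together, with a median coefficient of variation over members between 6.01% and 8.77% in the sorted groups and 17.1% in SUM159PT.

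**Figure D1:**
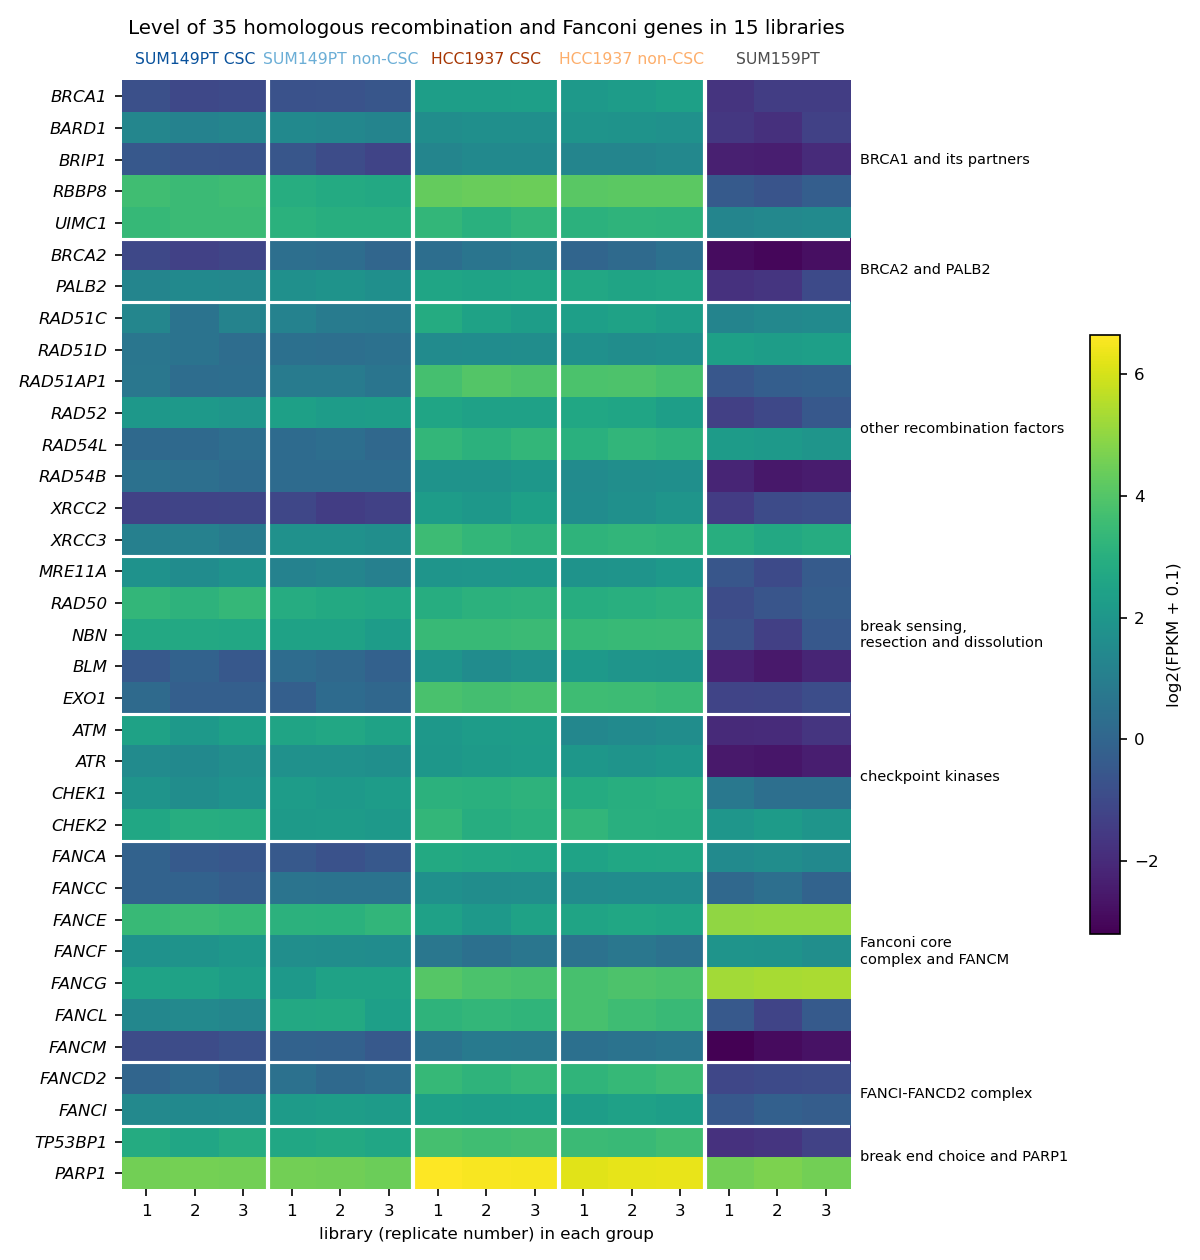
Level of the 35 members, as log2(FPKM + 0.1) in color, in each of the 15 libraries, grouped by cell line and fraction and ordered by role. By group mean 22 members were highest in HCC1937 CSC and 24 were lowest in SUM159PT. Of all genes tested 55.5% were called lower in SUM159PT than in SUM149PT CSC, and 57.9% lower than in HCC1937 CSC.

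BRCA1 itself set the lines apart. Its FPKM was 0.469, 0.378 and 0.403 in the SUM149PT CSC libraries and 0.500, 0.527 and 0.583 in the non-CSC libraries. In HCC1937 it was 4.91, 4.93 and 5.07 in CSC and 4.12, 4.62 and 5.14 in non-CSC, and in SUM159PT 0.202, 0.280 and 0.273. Every HCC1937 library was above every library of the other lines, and the SUM149PT fractions did not overlap.

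BRCA2, which acts on the resected strand, differed by fraction in SUM149PT. Its FPKM was 0.376, 0.309 and 0.353 in SUM149PT CSC and 1.22, 1.15 and 0.925 in non-CSC. In HCC1937 it was 1.16, 1.45 and 1.62 in CSC and 0.911, 1.06 and 1.30 in non-CSC, and in SUM159PT 0.0356, 0.0214 and 0.0422. The SUM149PT CSC libraries were all below the non-CSC libraries, the HCC1937 fractions overlapped, and the SUM159PT libraries were below all others.

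**Figure D2:**
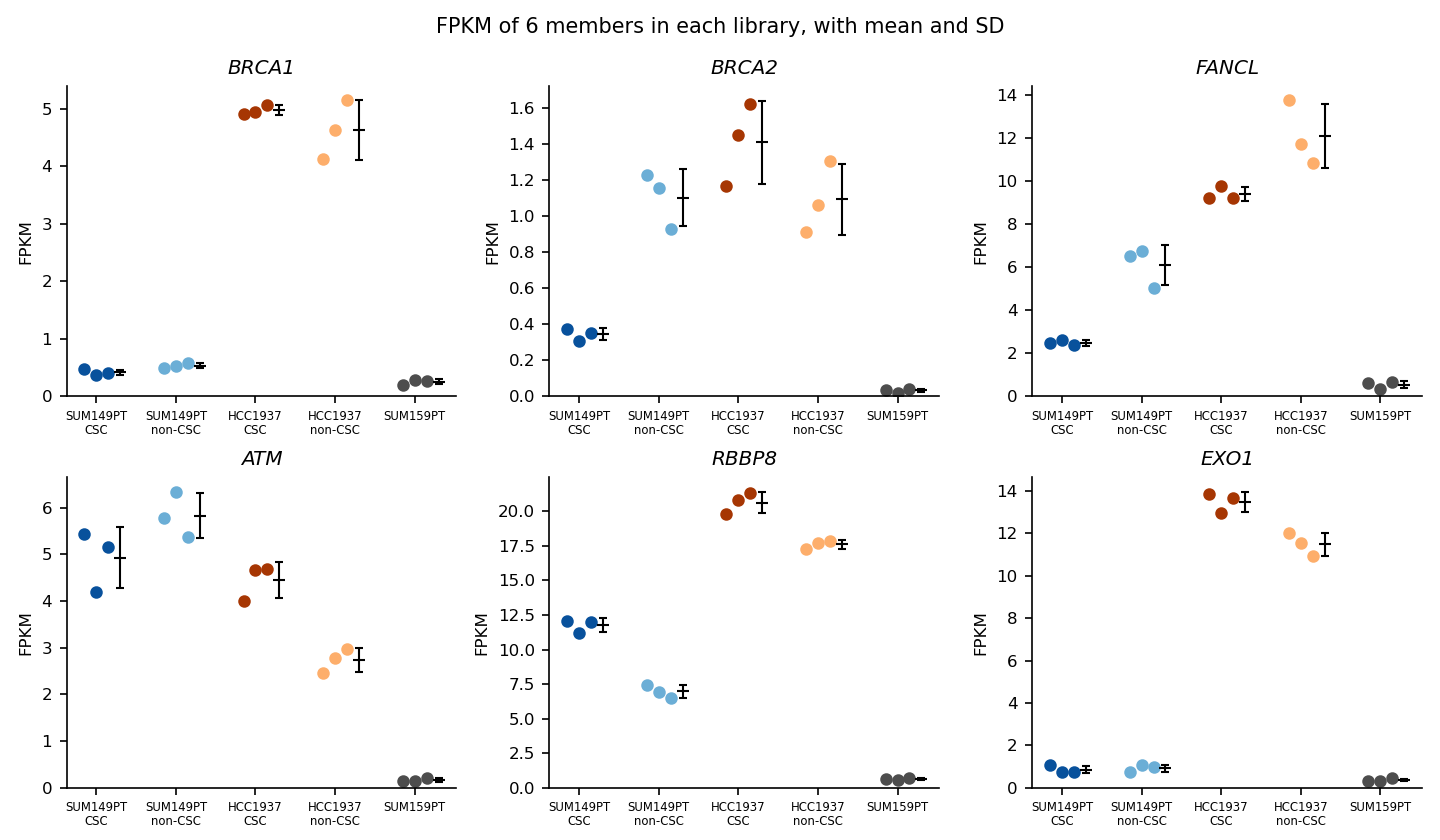
FPKM of BRCA1, BRCA2, FANCL, ATM, RBBP8 and EXO1 in each library (points), with the mean and SD (black bars), for the 5 groups of 3 libraries. BRCA2 and FANCL were lower in SUM149PT CSC than non-CSC, ATM was higher in HCC1937 CSC than non-CSC, and BRCA1 and EXO1 were highest in HCC1937.

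The first comparison asked how the CSC fraction of SUM149PT differed from its non-CSC fraction. With the deposited values 8 members were higher and 11 lower in CSC, while quantile normalization gave 15 higher and 5 lower, so that the balance between directions turned with the scaling. Among all 16037 genes tested, 33.3% were higher and 41.5% lower, so the members' shares were below both. With quantile normalization 42.9% of the members and 41.1% of all genes were higher, and 14.3% and 34.5% lower. The median log2 difference was -0.00 over the members and -0.11 over all genes, a median that quantile normalization moved by 0.20. Higher calls made up 42.1% of the members' calls with the deposited values and 75% with quantile normalization.

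BRCA2 had the largest difference of the 35, with a log2 difference of -1.42 (SE 0.12, adjusted p 0.000124), a level 3.18 times lower in CSC. An exact two-sided permutation test of 3 against 3 libraries cannot go below p = 0.10, the value BRCA2 gave. PALB2, the bridge between BRCA1 and BRCA2, was lower as well, by a log2 difference of -0.38 (SE 0.08, adjusted p 0.00579), a call lost with quantile normalization (-0.14, adjusted p 0.159). BRCA1 was lower with a log2 difference of -0.30 (SE 0.09, adjusted p 0.0257) in the deposited values, but quantile normalization turned it to a higher call of 0.28 (adjusted p 0.0423). The BRCA1 call was also lost with a pseudocount of 1, no expression minimum, TPM rescaling, an eBayes trend, a robust trend or a replicate block (adjusted p 0.0661 to 0.127), and without SUM149PT CSC replicate 2 (adjusted p 0.0745), CSC replicate 3 (0.0781), non-CSC replicate 2 (0.0564) or non-CSC replicate 3 (0.0739).

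Of the BRCA1 partners RBBP8 and UIMC1 were higher in CSC. RBBP8 (CtIP), which starts resection, had 12.1, 11.2 and 11.997 FPKM in SUM149PT CSC and 7.48, 6.94 and 6.53 in non-CSC. No CSC library was as low as a non-CSC library, and the log2 difference was 0.75 (SE 0.07, adjusted p 0.000247). UIMC1 (RAP80), which brings BRCA1 to ubiquitin chains at breaks, had 10.5, 11.3 and 11.2 FPKM in CSC and 8.41, 7.75 and 7.72 in non-CSC, a log2 difference of 0.46. The ubiquitin ligase partner BARD1 (-0.11, adjusted p 0.264) and the helicase BRIP1 (0.29, adjusted p 0.155) did not pass the test.

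All 3 genes of the complex that senses breaks were higher in SUM149PT CSC, where 33.3% of all genes tested were higher. MRE11A, its nuclease, had 3.45, 2.93 and 3.46 FPKM in CSC and 2.12, 2.29 and 2.01 in non-CSC. RAD50, its ATPase, had 9.71, 8.78 and 10.2 FPKM in CSC and 7.40, 6.81 and 6.34 in non-CSC. NBN, which recruits ATM, had 6.51, 6.61 and 6.43 FPKM in CSC and 5.46, 5.39 and 4.58 in non-CSC. None of the 3 overlapped between fractions, and the log2 differences were 0.59 for MRE11A, 0.47 for RAD50 and 0.34 for NBN, the last lost in a fit over all 15 libraries (adjusted p 0.0754). BLM, the helicase that dissolves recombination intermediates, was lower by a log2 difference of -0.45 (adjusted p 0.0412) in the deposited values, though 0.05 with quantile normalization. Its call was lost with no expression minimum (adjusted p 0.134) and without SUM149PT CSC replicate 1 (0.114), CSC replicate 3 (0.118), non-CSC replicate 1 (0.115) or non-CSC replicate 2 (0.0973).

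The checkpoint kinases were split. CHEK2, activated by ATM, had 6.24, 7.52 and 7.27 FPKM in SUM149PT CSC and 4.37, 4.45 and 4.29 in non-CSC, a log2 difference of 0.67 (SE 0.08, adjusted p 0.000741) with no overlap. CHEK1, activated by ATR at stalled forks, was lower with a log2 difference of -0.39 (adjusted p 0.00828), a call lost with quantile normalization (-0.20, adjusted p 0.084). ATM had a log2 difference of -0.24 (adjusted p 0.114) and ATR of -0.19 (adjusted p 0.0504), and neither was called. Of 19 alternatives 7 changed the ATR result, 1 by a turn of sign, and 1 changed the ATM result.

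Among the 7 genes of the Fanconi core complex and FANCM, 3 were lower, 2 higher and 2 not called. Of all genes tested 41.5% were lower and 33.3% higher, so the split is close to that of genes at large. FANCL, the ubiquitin ligase of the complex, had 2.47, 2.62 and 2.37 FPKM in SUM149PT CSC and 6.52, 6.76 and 5.04 in non-CSC. The log2 difference of FANCL was -1.25 (SE 0.13, adjusted p 0.000263), the largest after BRCA2, and the fractions were well apart. FANCC had 0.835, 0.830 and 0.715 FPKM in CSC and 1.41, 1.38 and 1.37 in non-CSC, a log2 difference of -0.74. FANCM had 0.434, 0.437 and 0.512 FPKM in CSC and 0.830, 0.815 and 0.632 in non-CSC, a log2 difference of -0.61 that quantile normalization brought to -0.03 (adjusted p 0.792). FANCE and FANCF were higher by log2 differences of 0.29 and 0.27, the latter lost under a replicate block (adjusted p 0.0509), while FANCG (0.05) and FANCA (0.22) were not called.

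FANCI, which the core complex modifies together with FANCD2, had 2.60, 2.64 and 2.77 FPKM in SUM149PT CSC and 4.45, 4.73 and 4.54 in non-CSC. The fractions did not overlap, with a log2 difference of -0.76 (SE 0.06, adjusted p 8.51e-05), the smallest adjusted p of the 35. FANCD2 had a log2 difference of -0.23 (adjusted p 0.10) and was not called. The ratio of FANCI to FANCD2 lay between 2.43 and 3.17 in the CSC libraries and between 3.51 and 4.60 in the non-CSC libraries.

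XRCC3 was lower as well. It had 2.03, 2.09 and 1.75 FPKM in SUM149PT CSC and 3.36, 3.29 and 3.04 in non-CSC, with no overlap and a log2 difference of -0.70 (SE 0.09, adjusted p 0.000645). RAD51C, RAD51D and XRCC2 had log2 differences of 0.07, 0.07 and 0.08. RAD52 was lower, by -0.27 (adjusted p 0.0135), a call lost with quantile normalization (-0.10), in a fit over all 15 libraries, with a length trend removed, and without CSC replicate 3 (adjusted p 0.051). RAD51AP1, RAD54L and RAD54B were not called, nor were TP53BP1, which restrains resection, PARP1 (both 0.08) and EXO1 (-0.11).

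At the adjusted p limit of 0.05, 11 of the 19 calls in SUM149PT were kept under every other alternative in which the gene was tested (BRCA2 was not tested at a minimum of 1 FPKM): BRCA2, XRCC3, MRE11A, RAD50, RBBP8, CHEK2, FANCC, FANCE, FANCI, FANCL and UIMC1. A fold of at least 2 as well left 2 of the calls, both lower, against 12.8% of all genes higher and 22.1% lower. A limit of 0.0001 with that fold left 0, against 7.71% and 12.8% of all genes. The summed level of the 35 members was 137 to 140 FPKM in CSC and 127 to 135 in non-CSC, so the sum moved little while single members moved in both directions.

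The 50 listed proliferation genes divided by phase in the same comparison. Of 26 genes of S phase and DNA replication, 15 were lower and 2 higher in SUM149PT CSC, with a median log2 difference of -0.50, and of 24 genes of G2 and mitosis, 18 were higher and 4 lower, with a median of 0.48. PCNA fell from 31.7 to 19.3 FPKM, MCM2 from 9.62 to 4.08 and E2F1 from 2.41 to 0.673, while TOP2A rose from 9.18 to 20.1, CCNB1 from 11.3 to 19.7 and MKI67 from 3.23 to 5.07. The sorted fractions also differed in their epithelial markers, with a sum over 6 genes of 87.0 to 92.6 FPKM in CSC and 675 to 682 in non-CSC (KRT18 the most abundant). The sum over 6 mesenchymal markers was 2076 to 2251 FPKM in CSC and 242 to 304 in non-CSC, nearly all VIM, while TWIST1 of that list was lower in CSC (3.45 against 7.12 FPKM). The part of cell cycle phase and of these states in the members' differences was not tested.

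Other repair genes were called in SUM149PT in both directions. Of 89 partner genes tested, from a list of 100 of which 94 were in the table, 23 were higher and 38 lower in CSC. The highest were XRCC1, a scaffold of single-strand break repair (1.54), REV3L, the catalytic subunit of a translesion polymerase (1.51), and HUS1 (1.51). The lowest were SLX4IP (-2.41), SWSAP1 (-2.25), and RAD9A (-1.73). HUS1 and RAD9A belong to the same checkpoint clamp and moved in opposite directions.

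The same comparison in HCC1937 called few members. By limma 3 were higher in CSC and 0 lower, where 10.3% of 15582 genes were higher and 15.3% lower, and at an unadjusted p of at most 0.05 the members' counts were 6 and 2, against 16.1% and 21.7% of all genes. The median log2 difference was 0.07 over the members and -0.03 over all genes, a median that rescaling to TPM moved by 0.12. With a GC trend removed 5 were higher and 2 lower, so that higher calls were 71.4% of the calls in place of 100%. Of all genes 14.9% were higher and 16.8% lower with that trend removed. The count of 3 fell to 1 without HCC1937 CSC replicate 1, CSC replicate 3, non-CSC replicate 1 or non-CSC replicate 2, and 1 member was lower without non-CSC replicate 3.

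ATM, the kinase that answers DNA breaks, had 3.999, 4.66 and 4.69 FPKM in HCC1937 CSC and 2.46, 2.78 and 2.98 in non-CSC. The fractions did not overlap, the log2 difference was 0.68 (SE 0.11, adjusted p 0.00718), and the call was kept under every alternative that held the limit at 0.05 without a fold, while a fold of at least 2 left 0 calls in HCC1937, against 422 of the 15582 genes higher (2.71%) and 935 lower. XRCC2 had 4.64, 4.05 and 5.17 FPKM in CSC and 2.92, 3.26 and 3.68 in non-CSC, a log2 difference of 0.48 (SE 0.13, adjusted p 0.0443). PARP1 had 99.3, 93.4 and 91.1 FPKM in CSC and 73.1, 77.8 and 79.0 in non-CSC, a log2 difference of 0.30 (SE 0.07, adjusted p 0.0286). Neither gene overlapped between fractions, but both calls were lost without some of the libraries. XRCC2 was not called under upper quartile scaling (adjusted p 0.0525), under a replicate block (0.0536), with 0.01 added in place of 0.1 (0.0507) or when genes at any level were tested (0.136), nor without CSC replicate 1 (adjusted p 0.0985), CSC replicate 3 (0.111), non-CSC replicate 1 (0.126) or non-CSC replicate 2 (0.121). PARP1 was not called under a replicate block (adjusted p 0.0917), nor when any of the 6 libraries was left out: CSC replicate 1 (adjusted p 0.0634), CSC replicate 2 (0.0804), CSC replicate 3 (0.0555), non-CSC replicate 1 (0.0976), non-CSC replicate 2 (0.0847) or non-CSC replicate 3 (0.0598).

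BRCA1 and BRCA2 were not called in HCC1937, with log2 differences of 0.11 (adjusted p 0.473) and 0.34 (adjusted p 0.202). FANCL had the largest difference in the lower direction, -0.35 (adjusted p 0.0589), and RBBP8 had 0.23 (adjusted p 0.0518), both without overlap between fractions and both short of the test. Of 19 alternatives 7 called RBBP8 higher and 6 called FANCL lower, and 9 called EXO1 higher, which had 0.23 (adjusted p 0.0643) with the deposited values. The proliferation genes also differed little here, with 2 of 50 higher and 0 lower by limma, and 4 and 0 at an unadjusted p of at most 0.05. Of the sort markers CD24 was 23.3 FPKM in HCC1937 CSC and 150.04 in non-CSC, against 7.74 and 139 in SUM149PT. CD44 was 106 and 97.8 FPKM in HCC1937, not called (adjusted p 0.314), and 84.4 and 64.5 in SUM149PT, called higher in CSC. The epithelial sum was 532 to 634 FPKM in HCC1937 CSC and 1399 to 1633 in non-CSC, and the mesenchymal sum 904 to 1058 and 134 to 204. Their part in the ATM difference was not tested. Of 90 repair partners 3 were higher, SFR1 (0.50), REV3L (0.45) and RECQL (0.30), and 3 lower, SWSAP1 (-0.71), RMI2 (-0.46) and WEE1 (-0.33).

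**Figure D3:**
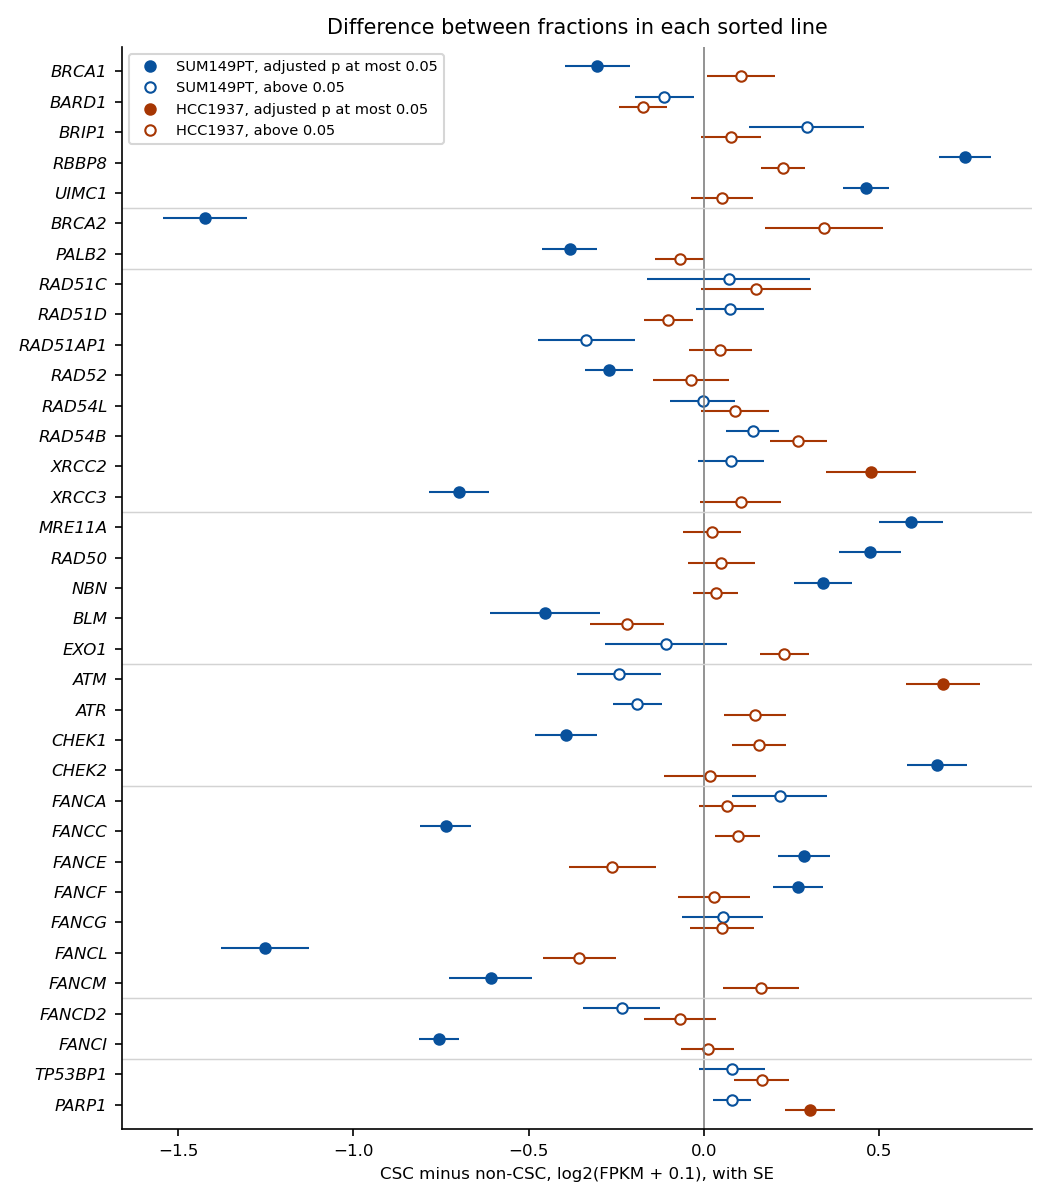
Log2 difference of CSC against non-CSC for the 35 members in SUM149PT and in HCC1937, with SE bars and filled points for called members. With the deposited values SUM149PT had 8 members higher and 11 lower, a balance that turned to 15 and 5 with quantile normalization, and HCC1937 had 3 higher.

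Whether the CSC difference itself differed between the lines was tested with an interaction term over the 12 sorted libraries. With the deposited values 7 members had a higher CSC difference in SUM149PT than in HCC1937 and 12 a lower one, and quantile normalization gave 11 on the higher side, 57.9% of the calls in place of 36.8%. Over all genes higher calls made up 52.5% of the calls with quantile normalization, where 31.4% of the members and 32.5% of all genes were higher, and 46.0% with the deposited values. With the latter 28.1% of 16451 genes were higher and 33.0% lower. The median was -0.17 over the members and -0.08 over all genes, the latter moved by 0.13 with quantile normalization. BRCA2 had the largest line difference, -1.77 in log2 units (SE 0.22, adjusted p 6.13e-05), followed by ATM (-0.93, SE 0.16), FANCL (-0.90, SE 0.17) and FANCC (-0.83, SE 0.09). ATM was called higher in HCC1937 CSC and not called in SUM149PT. BRCA2, FANCL and FANCC were called lower in SUM149PT CSC and not called in HCC1937. The uncalled line also adds to each of these values.

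The sorted lines share no library, so their CSC differences can be set against each other. The sign was the same for 21 of 35 members (60%) and for 59.7% of 14423 genes tested in both. Across genes, which are not independent replicates, Spearman's rho between the lines was 0.0143 over the 35 members and 0.311 over all 14423 genes. No member was called in both lines, while 3157 genes were, 2315 of them in the same direction. RBBP8 and FANCL had the same sign in both lines, and BRCA2, BRCA1 and CHEK1 opposite signs, though none of them was called in HCC1937. With quantile normalization BRCA1 turned to 0.28 in SUM149PT, the sign it had in HCC1937.

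The next comparison set HCC1937 against SUM149PT within the CSC fractions. With the deposited values 28 members were higher and 3 lower in HCC1937, among 15952 genes of which 45.2% were higher and 31.5% lower. The median log2 difference was 1.47 over the members and 0.24 over all genes, the latter moved by -0.22 with upper quartile scaling and by -0.17 with quantile normalization. EXO1, the exonuclease of long resection, had 13.8, 13.0 and 13.7 FPKM in HCC1937 CSC and 1.06, 0.760 and 0.754 in SUM149PT CSC. Its level was 15.7 times higher, a log2 difference of 3.84 (SE 0.13, adjusted p 4.12e-06).

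XRCC2 had a log2 difference of 3.42 (SE 0.10). Against 0.323, 0.346 and 0.347 FPKM in SUM149PT CSC its level was 13.6 times higher in HCC1937 CSC. RAD51AP1, which helps the broken end pair with the sister chromatid, had 13.3, 15.7 and 14.7 FPKM in HCC1937 CSC and 1.54, 1.16 and 1.19 in SUM149PT CSC. Its log2 difference was 3.40 (SE 0.13), and no library of the lines overlapped for these genes. BRCA1 had a log2 difference of 3.30 (SE 0.08, adjusted p 1.45e-06), 11.9 times higher in HCC1937, and BRCA2 of 1.75 (SE 0.13), 4.07 times higher.

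FANCD2 (3.25), FANCA (3.03) and RAD54L (3.02) followed BRCA1. Of the break sensors MRE11A (0.21) and RAD50 (-0.21) were not called, and NBN was called higher at 0.73. The members lower in HCC1937 CSC were FANCF (-1.29), FANCE (-1.11) and UIMC1 (-0.27). The UIMC1 call was lost with no expression minimum (adjusted p 0.0748) or a replicate block (0.0901), and without SUM149PT CSC replicate 1 (adjusted p 0.0511), replicate 2 (0.0978) or replicate 3 (0.0995) and without HCC1937 CSC replicate 2 (0.0746) or replicate 3 (0.0533).

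FANCE, which binds FANCD2 within the core complex, had 5.28, 4.12 and 5.49 FPKM in HCC1937 CSC and 10.7, 11.1 and 10.5 in SUM149PT CSC. FANCF, an adaptor of the complex, had 1.52, 1.26 and 1.49 FPKM in HCC1937 CSC and 3.45, 3.47 and 3.92 in SUM149PT CSC. These genes were chosen for print after their values were seen, and neither overlapped between the lines. The promoter windows of EXO1, XRCC2, FANCD2, FANCA and FANCC that hold the E2F type motif belong to genes with log2 differences of 3.84, 3.42, 3.25, 3.03 and 1.83 here. The windows of RAD51AP1, BRCA1 and RAD54L hold none of those 4 motifs, and those genes had 3.40, 3.30 and 3.02.

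The non-CSC fractions gave counts close to these. In HCC1937 non-CSC 27 members were higher and 3 lower than in SUM149PT non-CSC, among 16433 genes of which 41.4% were higher and 35.6% lower. The median log2 difference was 0.999 over the members and 0.10 over all genes, the latter moved by -0.22 with upper quartile scaling and -0.16 with TPM. EXO1 (3.50, SE 0.13), FANCA (3.18, SE 0.10), FANCD2 (3.08, SE 0.11) and RAD51AP1 (3.02, SE 0.10) led, and BRCA1 had 2.89 (SE 0.10).

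FANCA had 5.63, 6.24 and 6.33 FPKM in HCC1937 non-CSC and 0.622, 0.510 and 0.617 in SUM149PT non-CSC. FANCD2 had 9.37, 10.5 and 11.4 FPKM in HCC1937 non-CSC and 1.27, 1.03 and 1.13 in SUM149PT non-CSC. EXO1 had 12.01, 11.5 and 10.9 FPKM in HCC1937 non-CSC and 0.749, 1.07 and 0.973 in SUM149PT non-CSC. All HCC1937 libraries were far above the SUM149PT libraries for these genes.

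BRCA2 was not called between the non-CSC fractions, with a log2 difference of -0.02 (SE 0.16, adjusted p 0.933) and overlapping libraries, nor were RAD50, RAD52, FANCI and UIMC1. ATM (-1.06), FANCF (-1.05) and FANCE (-0.56) were lower in HCC1937 non-CSC. ATR was called higher at 0.22 (adjusted p 0.0233), but had -0.01 with upper quartile scaling. The ATR call was also lost with TPM rescaling (adjusted p 0.563), under a replicate block (0.0696), after removal of a GC trend (0.0755), and without SUM149PT non-CSC replicate 2 (adjusted p 0.0509), SUM149PT non-CSC replicate 3 (0.0695), HCC1937 non-CSC replicate 1 (0.0659) or HCC1937 non-CSC replicate 3 (0.0613).

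The proliferation genes moved with the members between these lines. All 50 were higher in HCC1937 in both fractions, with median log2 differences of 1.98 in CSC and 2.26 in non-CSC. MKI67 was 28.96 FPKM in HCC1937 CSC and 5.07 in SUM149PT CSC, PCNA 164 and 19.3, MCM2 56.8 and 4.08, and E2F1 34.8 and 0.673. Per 100 FPKM of the proliferation genes, the members summed to 19.97 to 22.2 FPKM in HCC1937 CSC and 18.7 to 20.3 in non-CSC. In SUM149PT that ratio was 40.7 to 43.6 in CSC and 39.2 to 43.1 in non-CSC, so the proliferation sum differed between lines by more than the members' sum. The part of proliferation in the members' difference was not tested.

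**Figure D4:**
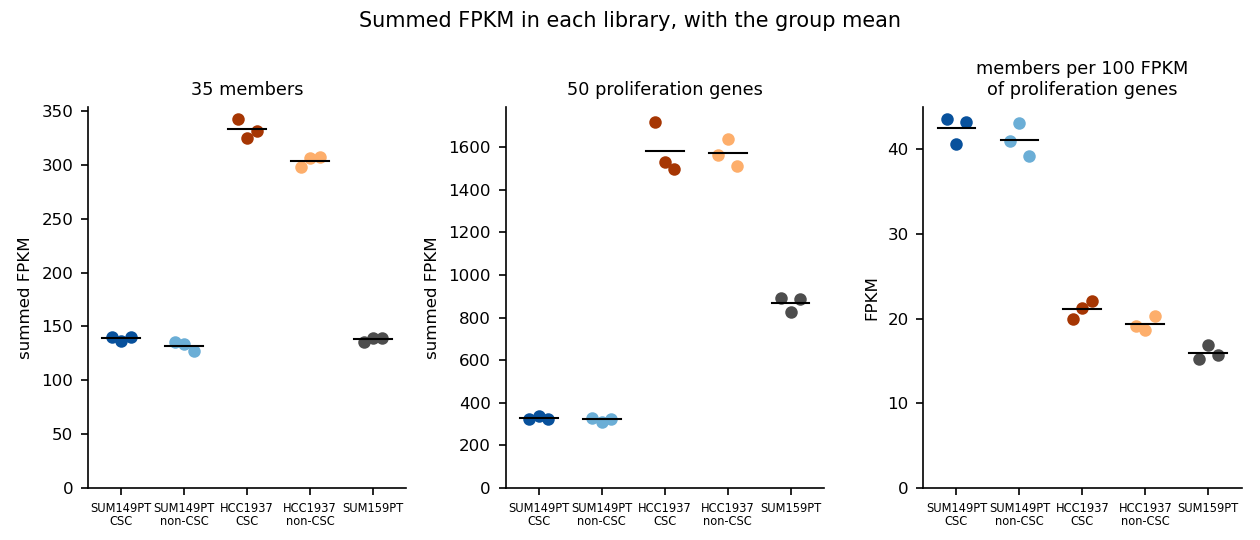
Summed FPKM of the 35 members, of the 50 proliferation genes, and of the members per 100 FPKM of proliferation genes, in each of the 15 libraries (points) with the group mean (line). The members' sum was 298 to 343 FPKM in HCC1937, 127 to 140 in SUM149PT and 136 to 139 in SUM159PT, but rescaled to TPM it was 837 to 1083, 403 to 482 and 208 to 220.

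Ratios within the pathway differed between lines as well. BARD1 and BRCA1 form a heterodimer, and the ratio of their FPKM was 5.07 to 5.80 in SUM149PT CSC and 3.92 to 5.40 in non-CSC. It was 0.606 to 0.641 in HCC1937 CSC, 0.653 to 0.887 in non-CSC and 0.638 to 1.14 in SUM159PT, so that BRCA1 was the scarcer transcript in SUM149PT and BARD1 in HCC1937. FANCI exceeded FANCD2 in every SUM149PT library and was 0.423 to 0.532 of it in HCC1937. PARP1 made up 24.5% to 28.9% of the members' sum in HCC1937 and 16.6% to 17.6% in SUM149PT.

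Of the 90 repair partners 54 were higher and 16 lower in HCC1937 CSC, and 53 higher and 19 lower in HCC1937 non-CSC. TONSL, which acts at stalled forks, had log2 differences of 4.32 and 3.25, and TIMELESS, a fork protection protein, 3.44 and 3.21. CLSPN, the adaptor that activates CHEK1, had 3.58 in CSC, and CDC25C 2.86 in non-CSC. The lowest were HUS1 (-1.71), WEE1 (-1.47) and WDR48 (-1.23) in CSC and SLX4IP (-1.80), RNF8 (-1.68) and DCLRE1C (-1.34) in non-CSC.

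Unsorted SUM159PT was compared with the CSC fractions because the study treats it as CSC, and line and sort cannot be told apart there. Against SUM149PT CSC 6 members were higher and 24 lower with the deposited values, but 20 higher and 10 lower with a GC trend removed from each library, so no direction held for the family. Among 14976 genes 31.5% were higher and 55.5% lower with the deposited values, and 41.8% and 42.6% of 13730 with the GC trend removed. The median log2 difference was -1.66 over the members and -0.76 over all genes, and the latter was moved by 0.27 with upper quartile scaling, 0.76 with quantile normalization and -1.07 with TPM. Higher calls were 20% of the members' calls, 45.2% with quantile normalization, 46.7% with a length trend removed and 66.7% with the GC trend removed. The last 2 settings were chosen after seeing the data. Of the calls over all genes, 36.2%, 50.3%, 50.4% and 49.5% were higher, in the same order.

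TP53BP1, ATM, ATR and RBBP8 had the lowest log2 differences, and kept their calls under every alternative. Their order depends on the added 0.1, most of all for ATR, whose mean of 0.0780 FPKM in SUM159PT cannot be told from none. TP53BP1 had 0.184, 0.211 and 0.320 FPKM in SUM159PT and 7.03, 5.98 and 7.23 in SUM149PT CSC, a log2 difference of -4.35 (SE 0.17). ATM had 0.144, 0.154 and 0.214 FPKM in SUM159PT and 5.44, 4.20 and 5.15 in SUM149PT CSC (-4.22, SE 0.14). ATR had 0.0750, 0.0663 and 0.0928 FPKM in SUM159PT and 2.85, 2.68 and 3.04 in SUM149PT CSC (-4.05, SE 0.09). RBBP8, with 0.644, 0.542 and 0.729 FPKM in SUM159PT, had a log2 difference of -4.01 (SE 0.11), and for none of the 4 did the groups overlap. The members with a SUM159PT mean under 0.1 FPKM were BRCA2, RAD54B, ATR and FANCM, and they passed the expression minimum through the other group.

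BRCA1 had a log2 difference of -0.56 (SE 0.12, adjusted p 0.00482) against SUM149PT CSC in the deposited values, but 0.63 with quantile normalization, 1.55 with a length trend removed and 1.64 with a GC trend removed. BRCA2 had -1.75 (SE 0.10) in the deposited values, but 0.78 with a length trend removed and 1.12 with a GC trend removed. Its mean of 0.0331 FPKM in SUM159PT cannot be told from none. The sizes of its differences therefore depend on the added 0.1, and the turned signs may too. The higher members, FANCG (2.93), FANCA (1.87), RAD54L (1.85), XRCC3 (1.83), RAD51D (1.82) and FANCE (1.59), kept their calls under every alternative.

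FANCG and FANCE had the highest FPKM of the members in SUM159PT. FPKM over all genes summed to 634746 to 652082 there and to 291276 to 366532 in the sorted libraries, so TPM rescaling makes the differences below smaller. Both genes have 55% to 60% GC, a bin whose median log2 difference over all genes was 0.60 against SUM149PT CSC and 0.26 against HCC1937 CSC. The part of either in these levels was not tested. FANCG, a scaffold of the core complex, had 39.0, 40.3 and 41.8 FPKM in SUM159PT, 5.51, 5.37 and 4.79 in SUM149PT CSC and 16.3, 14.2 and 13.5 in HCC1937 CSC. FANCE had 32.0, 32.7 and 32.7 FPKM in SUM159PT, above all libraries of the other lines. FANCE and FANCG together made up 52.4% to 53.4% of the members' sum in SUM159PT and 5.64% to 12.04% in the other groups, values that were chosen after they were seen.

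Against HCC1937 CSC 4 members were higher in SUM159PT and 31 lower, with 27.5% of 15515 genes higher and 57.9% lower. The median log2 difference was -3.44 over the members and -0.97 over all genes, the latter moved by 0.48 with upper quartile scaling, 0.92 with quantile normalization and -0.99 with TPM. TP53BP1 (-5.27, SE 0.16), EXO1 (-4.84, SE 0.11), RBBP8 (-4.82, SE 0.12) and ATR (-4.62, SE 0.11) were the lowest, with EXO1 at 0.337, 0.347 and 0.450 FPKM in SUM159PT. BRCA1 had -3.86 (SE 0.11) and BRCA2 -3.49 (SE 0.14). ATR and BRCA2 averaged 0.0780 and 0.0331 FPKM in SUM159PT, levels that cannot be told from none, so the sizes of their differences and their ranks depend on the added 0.1. FANCE (2.70), FANCG (1.46), FANCF (1.20) and RAD51D (0.74) were higher, though TPM rescaling turned RAD51D to -0.24 and brought FANCF to 0.25 (adjusted p 0.0665), not called. XRCC3 was lower at -0.46 (adjusted p 0.0145), but turned to 0.36 with quantile normalization, 0.08 with upper quartile scaling and 0.73 with a length trend removed. Its call was also lost with no expression minimum and without SUM159PT replicate 2 (adjusted p 0.0502 for both). RAD51C, called lower, turned to a higher call of 1.16 with a GC trend removed (adjusted p 0.000389). FANCA, called lower, turned to a higher call of 0.52 with a length trend removed (adjusted p 0.000988). At the limit of 0.05 without a fold, 25 of the 35 calls were kept under every alternative tested, and 7 turned sign. These comparisons share the SUM159PT libraries, so their counts are not independent.

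Base composition and length moved with the SUM159PT differences over all genes. Across 10597 genes averaging 1 FPKM or more, which are not independent replicates, Spearman's rho of the SUM159PT to SUM149PT CSC difference was 0.649 with GC content and -0.458 with transcript length. Over the 24 members that reached this level the values were 0.707 and -0.450. The median member had 42.2% GC and 4592 bases, against 48.8% and 3530 bases over 11676 genes. The bins of GC content held every gene tested whose GC content was known, without the minimum of 1 FPKM, and all 35 members. For genes under 40% GC the median log2 difference was -2.87, with -2.11 for the 11 members among them, and for genes from 55% to 60% GC it was 0.60, with 1.87 for 3 members.

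FANCE, FANCG and FANCA, the 3 members from 55% to 60% GC, were all higher in SUM159PT than in SUM149PT CSC. FANCM, with 37.7% GC, and BRCA2, with 36.3%, were among the lowest levels. Against HCC1937 CSC rho was 0.599 with GC content over 10907 genes and 0.635 over 33 members. Between HCC1937 CSC and SUM149PT CSC rho with GC was 0.0676 over 11473 genes and -0.0200 over 34 members, so base composition did not move with that difference to the same extent. The part of base composition and length in the SUM159PT differences was not tested beyond the trend removals given above.

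**Figure D5:**
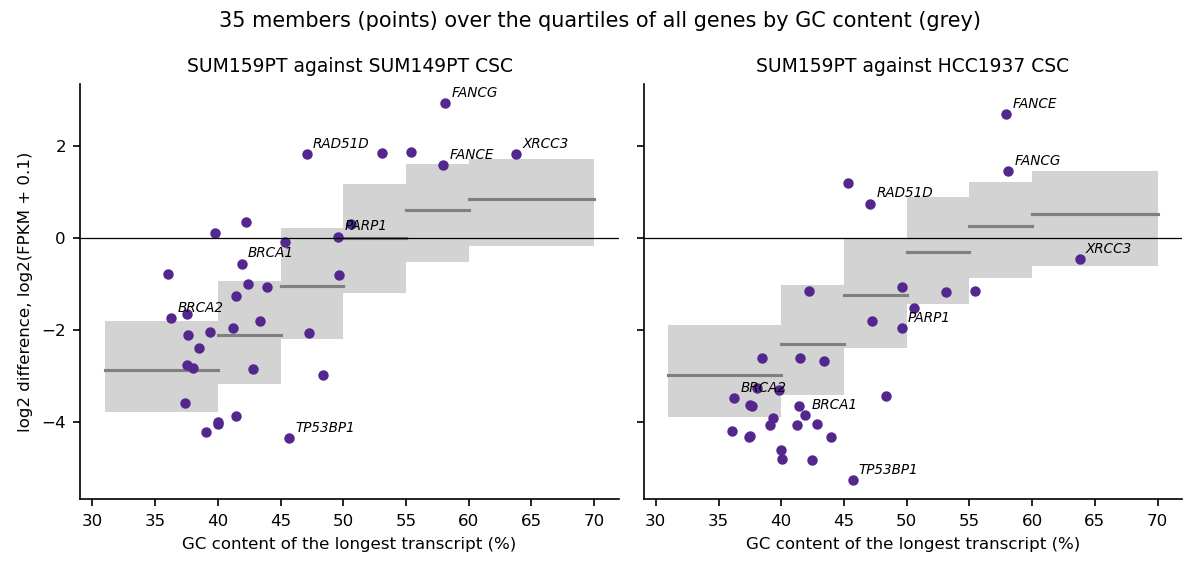
Log2 difference of SUM159PT against SUM149PT CSC (left) and HCC1937 CSC (right) by GC content of the longest transcript, with the 35 members as points and the quartiles (grey) and median (line) of all genes per bin, the outer bins being open. Against SUM149PT CSC the median of all genes was -2.87 under 40% GC and 0.85 from 60% GC, and with a GC trend removed the members' balance turned from 6 higher and 24 lower to 20 higher and 10 lower.

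The proliferation genes gave no common direction in SUM159PT against SUM149PT CSC, with 21 higher and 24 lower of 50. Of its S phase genes 15 of 26 were higher and 7 lower, and of its G2 and mitosis genes 6 of 24 were higher and 17 lower, before any trend was removed. MCM2 was 68.9 FPKM in SUM159PT and 4.08 in SUM149PT CSC, and MKI67 1.40 and 5.07. Against HCC1937 CSC 5 of 50 were higher and 40 lower. Of the repair partners 34 of 89 were higher and 47 lower than in SUM149PT CSC, led by TONSL (3.16), RPA3 (2.32) and LIG1 (2.27) and by RIF1 (-5.09), POLK (-4.53) and WRN (-4.48). Against HCC1937 CSC 15 of 90 were higher and 63 lower, led by POLL (3.06), STRA13 (1.84) and NHEJ1 (1.75) and by RIF1 (-5.44), RECQL (-5.19) and RNF168 (-4.83).

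Marker genes of other cell types were read as well. The samples are cultured cancer cell lines, so the level of a marker is not evidence that such cells were present. Of the leukocyte markers CD3E was at 0 in all groups and PTPRC averaged at most 0.0660 FPKM, while CD14 averaged 2.66 FPKM in SUM149PT CSC and 51.3 in non-CSC, 60.3 and 30.3 in HCC1937, and 18.7 in SUM159PT. CD68 averaged 16.2 and 48.3 FPKM in SUM149PT, 42.3 and 39.99 in HCC1937, and 31.9 in SUM159PT. The 4 endothelial markers summed to 0.162 to 0.171 FPKM in SUM149PT CSC and 1.59 to 1.83 in non-CSC, the highest of any group. The 6 fibroblast markers summed to 234 to 240 FPKM in SUM149PT CSC and 67.0 to 70.4 in non-CSC, 11.8 to 12.8 and 6.12 to 7.84 in HCC1937, and 41.1 to 46.3 in SUM159PT, with COL1A1 the most abundant (216 and 49.0 in the SUM149PT fractions). In SUM149PT the fibroblast markers DCN (1.80 FPKM in CSC and 16.2 in non-CSC) and LUM (0.165 and 0.391) went the other way. CD14, CD68 and the endothelial and fibroblast markers thus moved with the SUM149PT fractions. In HCC1937 CSC CD14 (log2 difference 0.99), COL1A1 (0.71) and COL1A2 (1.58) were called higher and CDH5 (-1.28) lower. CD68, PECAM1 and LUM were not called there. The part of these markers in the members' differences was not tested. Of the receptors behind the label triple negative, PGR averaged at most 0.00101 FPKM in any group and ESR1 at most 1.66, while ERBB2 averaged 3.55 to 19.1 FPKM.

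Some levels are less certain because of what lies beside or resembles the gene. The annotation holds 4 copies named as pseudogenes of CHEK2, 2 of PARP1 and 1 each of FANCD2, RAD51AP1 and RBBP8, and how reads that fit several places were counted is not given. By exon, 90.6% of RAD50, 63.3% of RAD54B, 45.3% of XRCC3, 28.9% of TP53BP1, 26.7% of FANCL and 22.4% of FANCA lie under exons of another annotated gene, those of RAD50 and RAD54B on the same strand. The levels of these 6 members may hold reads of their neighbours.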

How the data were processed

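The authors deposited a table of FPKM per gene symbol for 15 RNA sequencing libraries, 3 in each of 5 groups. Their notes name Bowtie2 and GRCh38, and the program and annotation behind the FPKM are not given in the sources used here. Members were matched by symbol. The values were used as deposited and fitted as log2(FPKM + 0.1) with limma 3.58.1 in R 4.3.3 (lmFit and eBayes, the test checked on simulated data). Each fit held the groups compared and every gene averaging 0.1 FPKM or more in them, with Benjamini-Hochberg adjustment over all of them and calls at an adjusted p of at most 0.05. An interaction term over 12 libraries tested the line difference. Read depth is unknown, so no counting error is given, and 3 libraries a group limit the precision.

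Alternatives were pseudocounts of 0.01 and 1, no expression minimum or 1 FPKM, upper quartile, quantile and TPM (sum of 1000000) scaling, eBayes with a trend, a fit over 15 libraries, the replicate number as a block, stricter limits, each library left out, and, chosen after seeing the data, length or GC trends (lowess) removed. Length and GC are those of the longest GENCODE v29 transcript. The members named with values per library are BRCA1, BRCA2, up to 6 called members with the largest differences per direction within a line and up to 4 per comparison between lines. For other repair genes up to 3 called per direction are named. The members and lists were chosen with earlier results of these data known. The total of the leukocyte markers and part of the counts by role are not reported here. Tables were made in Python 3.11.15 with numpy 2.4.6, pandas 2.3.3 and scipy 1.17.1, and figures with matplotlib 3.10.9.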

Additional observations from a re-analysis of the deposited data

Results flagged for a closer look

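The CSC against non-CSC difference differed between SUM149PT and HCC1937 for 19 members, by the interaction test over the 12 sorted libraries. Of the 35 members 20% were higher and 34.3% lower, against 28.1% and 33.0% of all 16451 genes tested, so over both directions the members were not called more often than other genes. The values are SUM149PT minus HCC1937 on the log2 scale, and no explanation was tested.

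The difference was lower in SUM149PT for BRCA2 (-1.77), ATM (-0.93), FANCL (-0.90), FANCC (-0.83), XRCC3 (-0.80), FANCI (-0.77), FANCM (-0.77), CHEK1 (-0.55), BRCA1 (-0.41), ATR (-0.34), PALB2 (-0.31) and PARP1 (-0.22). It was higher in SUM149PT for CHEK2 (0.65), MRE11A (0.57), FANCE (0.55), RBBP8 (0.52), RAD50 (0.42), UIMC1 (0.41) and NBN (0.31). At the adjusted p limit of 0.05 without a fold, 12 of the 19 calls were kept under every alternative in which the gene was tested (BRCA2 was not tested at a minimum of 1 FPKM): BRCA2, XRCC3, MRE11A, RBBP8, ATM, CHEK1, CHEK2, FANCC, FANCE, FANCI, FANCL and UIMC1.

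The call of BRCA1 was lost without SUM149PT CSC replicate 2 (adjusted p 0.054) or SUM149PT non-CSC replicate 3 (0.0526) and with a pseudocount of 1 (0.0661), and its sign turned with quantile normalization (0.09). The call of NBN was lost without HCC1937 CSC replicate 2 (adjusted p 0.051), with TPM rescaling (0.187) and in a fit over all 15 libraries (0.267). That of ATR was lost without SUM149PT CSC replicate 2 (adjusted p 0.0528) or HCC1937 non-CSC replicate 2 (0.052), with upper quartile scaling (0.0514), quantile normalization (0.164), TPM rescaling (0.055) and a replicate block (0.0548). PARP1 was not called without SUM149PT CSC replicate 1 (adjusted p 0.0696) or 3 (0.069), SUM149PT non-CSC replicate 1 (0.0719) or 2 (0.0684), HCC1937 CSC replicate 1 (0.0664) or 2 (0.0517), or HCC1937 non-CSC replicate 1 (0.0781), nor with a replicate block (0.0996), a length trend removed (0.0627) or a GC trend removed (0.14). PALB2, RAD50 and FANCM lost their calls with a scaling or in a fit over all 15 libraries only.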

How the results depend on the processing

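Counts of members are given as higher and lower. In SUM149PT CSC against non-CSC (8 and 11) quantile normalization gave 15 and 5, a fold change of at least 2 as well gave 0 and 2, and limits of an adjusted p of at most 0.0001 and a fold of 2 gave 0 and 0. In HCC1937 (3 and 0) the higher count was 5 with a pseudocount of 1, 6 with an expression minimum of 1 FPKM, 6 with quantile normalization, 5 with an eBayes trend, 5 with a robust trend, 6 with a length trend removed, 5 with a GC trend removed, 0 with a fold of 2 and 0 with both stricter limits. The lower count there was 1 with a pseudocount of 1, 1 with the minimum of 1 FPKM, 1 with a trend, 1 with a robust trend and 2 with a GC trend removed. With each HCC1937 library left out in turn the higher count was 1 to 2 and the lower count 0 to 1. The higher count of the line difference (7) was 11 with quantile normalization.

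For SUM159PT against SUM149PT CSC (6 and 24) the higher count was 14 with quantile normalization, 14 with a length trend removed and 20 with a GC trend removed, and the lower count 15 with a minimum of 1 FPKM and 10 with a GC trend removed. Against HCC1937 CSC the higher count (4) was 2 with TPM rescaling. The other 162 counts with a changed setting and 91 with a library left out stayed within 1.5 times.

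Among called members the sign turned under some alternative for 14 of 30 in SUM159PT against SUM149PT CSC. Against HCC1937 CSC it turned for 7 of 35. The counts were 2 of 19 in SUM149PT, 1 of 19 in the line difference and 1 of 30 between the non-CSC fractions. Of BRCA1 and BRCA2, BRCA1 turned in SUM149PT CSC against non-CSC (0.28 with quantile normalization) and in the line difference (0.089, quantile). In SUM159PT against SUM149PT CSC BRCA1 turned to 0.63 (quantile), 1.55 (length trend) and 1.64 (GC trend). BRCA2 turned there to 0.78 (length trend) and 1.12 (GC trend), from a mean of 0.0331 FPKM in SUM159PT that cannot be told from none. BRCA2 between the non-CSC fractions, not called, turned to 0.10 with quantile normalization and 0.16 with a length trend removed, and to 0.06, 0.02 and 0.10 with a library left out, a range of -0.14 to 0.10. The cause was not tested, except that fewer genes pass a higher minimum.

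The CSC and non-CSC libraries of a line share replicate numbers, and nothing states whether a shared number means a shared sort. The same-number correlations of deviations from the group means were 0.143, 0.0223 and 0.130 in SUM149PT and -0.130, -0.0510 and -0.0280 in HCC1937. The best match had the same number for SUM149PT CSC replicates 1 and 3, and for no replicate in HCC1937. With 3 libraries a group these values cannot settle pairing, and the main fits were unpaired. With the replicate number as a block, the counts were 7 and 10 in SUM149PT, 1 and 0 in HCC1937, 7 and 10 for the line difference, 28 and 2 for CSC and 26 and 3 for non-CSC between lines, 7 and 24 for SUM159PT against SUM149PT CSC and 4 and 31 against HCC1937 CSC. Under the block PARP1 (adjusted p 0.0917) and XRCC2 (0.0536) lost their calls in HCC1937, as did BRCA1 (0.0661) and FANCF (0.0509) in SUM149PT.

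Read depth is not known, so a level under about 0.1 FPKM, as for FANCM in SUM159PT, cannot be told from none.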
